A study of Danio rerio with 16 samples.

Results

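The actinodin genes *and1*, *and2*, and *and3*, the Fras1-related genes *fras1*, *frem1a*, *frem2a*, *frem2b*, and *frem3*, and the hemicentin genes *hmcn1* and *hmcn2* were examined in whole zebrafish embryos. These 10 genes were chosen by name as genes of fin fold actinotrichia and epidermal adhesion, with earlier results of these data known. They occupied 11 of the 32520 rows of the gene count table, because the symbol *hmcn2* stood on 2 rows, and all 11 rows passed the filter on low counts. The libraries came from *fbn2b*-/- embryos at 2 days post fertilization (dpf) (n = 5), WT (*fbn2b* +/+) embryos at 2 dpf (n = 3), *fbn2b*-/- embryos at 1 dpf (n = 3), and WT embryos at 1 dpf (n = 4). Each library held the RNA of 10 pooled whole embryos, and the RNA sequencing addressed which genes differ early in mutants that lack this fibrillin. The gene labeled *fbn2b* is called *fbn3* in the paper that reported the data. The mutant line described in its main text carries a frameshift deletion made by genome editing, and its supplement also lists a line with another deletion in this gene. The sample labels do not name the line, and neither labels nor methods say whether the 10 embryos of a pool came from 1 clutch.

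The larval fin fold is a double sheet of epidermis that is stretched from within by actinotrichia, unmineralized fibers of collagen and actinodin proteins. The Fras/Frem proteins form a complex in the basement membrane (the Fraser complex) that holds epidermis to the tissue beneath it, and hemicentins are large extracellular proteins that act at the same junction. In zebrafish, loss of *fras1*, *frem1a*, *frem2a*, or *hmcn1* is known to blister the fin fold, and loss of *and1* and *and2* together to remove actinotrichia. Fibrillins are microfibril proteins of the same extracellular matrix.

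Library totals ranged from 41473603 to 179887580 counts, and each of the 11 rows had counts above 0 in all 15 libraries. The mutated gene itself checked the labels. *fbn2b* was at 15.1 to 20.8 CPM (counts per fixed number of reads in a library, with libraries scaled by the trimmed mean of M values, TMM) in *fbn2b*-/- embryos and 163.5 to 239 CPM in WT at 2 dpf. At 1 dpf it was at 19.5 to 28.7 CPM in *fbn2b*-/- embryos and 103 to 337 CPM in WT. Markers of basal epidermis, periderm, muscle, notochord, nervous system, blood, and vessels were all detected, with 0 listed genes at 0 in all libraries of a group. The labels give each library a number, and the division into lower and higher numbers was made here, not by the labels. It falls between consecutive numbers, so no gap in the numbering marks it, and whether it marks a batch is not known. The *fbn2b*-/- libraries at 1 dpf all had lower numbers, whereas WT at 1 dpf had 2 of each, so at 1 dpf a genotype difference within the higher numbers could not be computed. Because transcript lengths were not used, levels are compared between libraries and not between genes.

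The actinodins rose strongly between the stages in both genotypes. *and1*, which encodes a structural protein of actinotrichia, had 274, 362, 299, 361, and 353 CPM in *fbn2b*-/- embryos at 2 dpf, against 46.9, 17.3, and 14.1 CPM in *fbn2b*-/- embryos at 1 dpf. In WT it had 439, 263, and 429 CPM at 2 dpf, against 128, 81.7, 25.4, and 38.9 CPM at 1 dpf. Every 2 dpf library lay above every 1 dpf library in both genotypes, and stages without overlap in either direction were common, at 56.3% of all genes in *fbn2b*-/- embryos and 49.7% in WT. The fitted rise was 12.7-fold in *fbn2b*-/- embryos (log2 fold change [log2FC] 3.66, standard error [SE] 0.52, false discovery rate [FDR] 2.16e-05 in edgeR's quasi-likelihood test) and 5.51-fold in WT (log2FC 2.46, SE 0.46, FDR 0.000314).

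*and2*, a second actinodin of the same fibers, had 142, 146, 112, 180.1, and 156 CPM in *fbn2b*-/- embryos at 2 dpf, against 17.8, 6.30, and 4.26 CPM in *fbn2b*-/- embryos at 1 dpf. WT embryos had 372, 206, and 356 CPM at 2 dpf, against 55.6, 24.4, 8.60, and 10.4 CPM at 1 dpf. The stages did not overlap in either genotype. The rise was 15.7-fold in *fbn2b*-/- embryos (log2FC 3.97, SE 0.61, edgeR FDR 5.20e-05) and 12.6-fold in WT (log2FC 3.66, SE 0.55, edgeR FDR 4.89e-05).

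*and3*, the third actinodin, rested on as few as 59 counts in a library of *fbn2b*-/- embryos at 1 dpf. It had 47.3, 62.2, 42.8, 43.1, and 48.1 CPM in *fbn2b*-/- embryos at 2 dpf, against 5.48, 0.902, and 0.688 CPM in *fbn2b*-/- embryos at 1 dpf. The WT values were 135, 92.9, and 142 CPM at 2 dpf, against 18.9, 8.56, 1.38, and 2.11 CPM at 1 dpf. Again every 2 dpf library exceeded every 1 dpf library of its genotype. The rise was 21.3-fold in *fbn2b*-/- embryos (log2FC 4.41, SE 0.78, edgeR FDR 0.000186) and 16.1-fold in WT (log2FC 4.01, SE 0.68, edgeR FDR 0.000143).

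**Figure D1:**
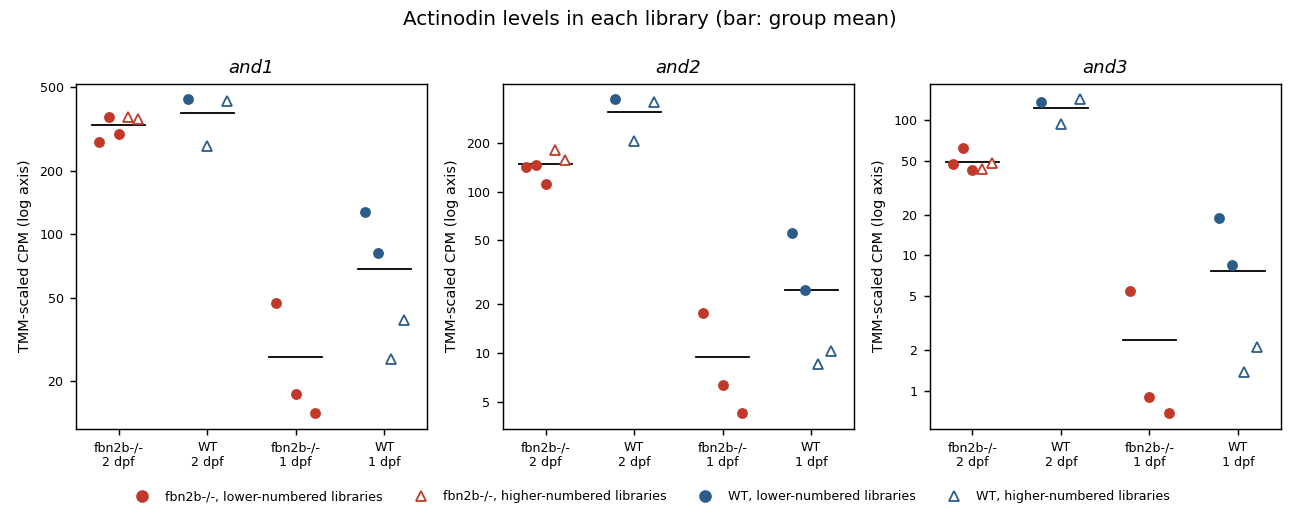
TMM-scaled CPM of *and1*, *and2*, and *and3* in each library on a log axis, for *fbn2b*-/- and WT embryos at 2 and 1 dpf, with the group mean as a bar and the symbol giving lower- or higher-numbered libraries. For *and3* the 5 *fbn2b*-/- libraries at 2 dpf sit between 42.8 and 62.2 CPM and the 3 WT libraries between 92.9 and 142 CPM, whereas at 1 dpf the genotypes overlap.

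At 2 dpf the 3 actinodins did not stand in the same relation to genotype. *and2* averaged 147 ± 24.6 CPM in *fbn2b*-/- embryos (SD, n = 5) and 311 ± 92.0 CPM in WT (SD, n = 3), and *and3* averaged 48.7 ± 7.91 CPM in *fbn2b*-/- embryos and 123 ± 26.6 CPM in WT. For both genes all 5 *fbn2b*-/- libraries lay below all 3 WT libraries, a separation in that direction found in 2.45% of all genes tested. The levels of *and2* and *and3* moved together within groups (r = 0.960 over 15 libraries), so their separations are not independent. *and1* averaged 329.7 ± 40.8 CPM in *fbn2b*-/- embryos and 377 ± 98.7 CPM in WT, and its groups overlapped.

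Neither *and2* nor *and3* passed the test at 2 dpf. The log2FC of *fbn2b*-/- over WT was −1.08 for *and2* (2.12-fold lower, SE 0.49, edgeR FDR 0.461) and −1.34 for *and3* (2.53-fold lower, SE 0.58, edgeR FDR 0.441). That of *and1* was −0.19 (SE 0.43, edgeR FDR 0.901). The SE of each came from a spread estimated over all 4 groups, and the actinodins varied more among replicates at 1 dpf (coefficients of variation of 67.6% to 115%) than at 2 dpf (12.4% to 29.5%). With the stages fitted separately, *and3* passed at 2 dpf with a log2FC of −1.36 and an edgeR FDR of 0.0289, whereas *and2* had an edgeR FDR of 0.106. The share of all genes that passed in that separate fit was not computed, so this call has no background beside it. The lower-numbered libraries at 2 dpf were *fbn2b*-/- replicates 1 to 3 and a single WT library, replicate 1, and the higher-numbered ones were *fbn2b*-/- replicates 4 and 5 and WT replicates 2 and 3. Within the lower-numbered libraries the difference was −1.49 for *and2*, −1.43 for *and3*, and −0.50 for *and1* on the log2 scale. Within the higher-numbered libraries it was −0.69, −1.33, and 0.09 in the same order of genes.

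The proportion of the actinodins to each other within a library separated the genotypes at 2 dpf. This ratio of counts was added after the levels had been seen, needs no scaling between libraries, and is given without a test. The counts of *and2* were 0.519, 0.403, 0.375, 0.499, and 0.442 times those of *and1* in *fbn2b*-/- embryos at 2 dpf, against 0.849, 0.782, and 0.830 times in WT. The counts of *and3* were 0.173, 0.172, 0.143, 0.119, and 0.136 times those of *and1* in *fbn2b*-/- embryos, against 0.308, 0.353, and 0.331 times in WT. For both ratios the highest *fbn2b*-/- library was below the lowest WT library. The ratios share the counts of *and1*, and how often ratios of other gene pairs separate in this way was not examined.

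At 1 dpf the same ratios overlapped. *and2* over *and1* ran over 0.301 to 0.378 in *fbn2b*-/- embryos and 0.266 to 0.435 in WT, and *and3* over *and1* over 0.0487 to 0.117 in *fbn2b*-/- embryos and 0.0541 to 0.148 in WT. The mean of *and2* over *and1* was 0.447 ± 0.0611 in *fbn2b*-/- embryos at 2 dpf (SD, n = 5) and 0.348 ± 0.0411 at 1 dpf (SD, n = 3). In WT it was 0.820 ± 0.0348 at 2 dpf (SD, n = 3) and 0.334 ± 0.0731 at 1 dpf (SD, n = 4). Because whole embryos were pooled, fewer cells that make a transcript and less of that transcript per cell cannot be told apart. The paper describes fin-fold atrophy in homozygous mutants of this fibrillin gene, visible from the earlier of the sampled stages onward. The part of reduced fin fold tissue in the actinodin levels and ratios was not tested.

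**Figure D2:**
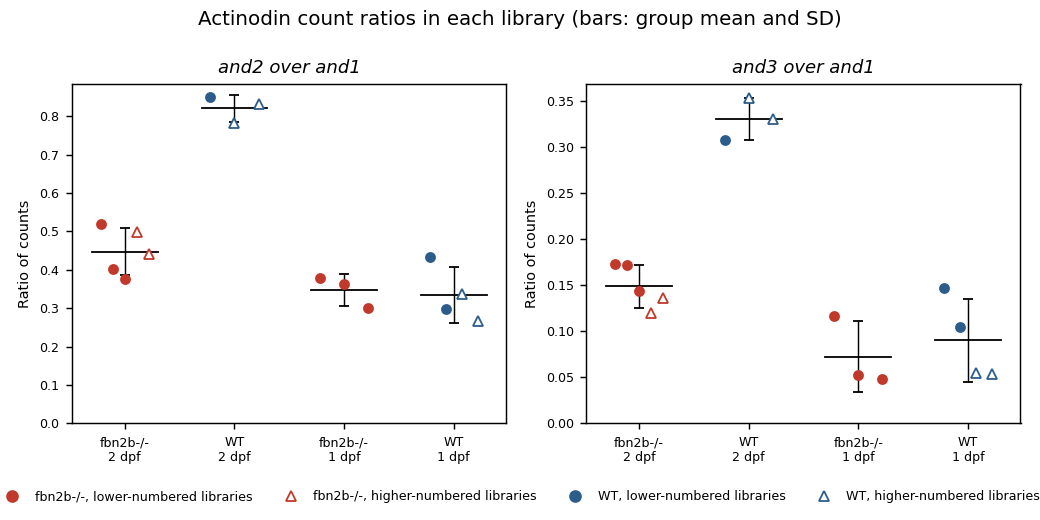
Ratio of *and2* to *and1* counts (left) and of *and3* to *and1* counts (right) in each library, for *fbn2b*-/- and WT embryos at 2 and 1 dpf, with group mean and SD as bars. At 2 dpf *and2* over *and1* is at most 0.519 in *fbn2b*-/- embryos and at least 0.782 in WT, and at 1 dpf the genotypes overlap in both panels.

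At 1 dpf the actinodins were lower on average in *fbn2b*-/- embryos but overlapped with WT. *and1* averaged 26.1 ± 18.1 CPM in *fbn2b*-/- embryos (SD, n = 3) and 68.5 ± 46.3 CPM in WT (SD, n = 4), a log2FC of −1.39 (SE 0.47, edgeR FDR 0.611). *and2* averaged 9.44 ± 7.28 CPM in *fbn2b*-/- embryos and 24.7 ± 21.7 CPM in WT (log2FC −1.40, SE 0.56, edgeR FDR 0.654). *and3* averaged 2.36 ± 2.71 CPM in *fbn2b*-/- embryos and 7.73 ± 8.09 CPM in WT (log2FC −1.74, SE 0.76, edgeR FDR 0.665). None of the 3 passed the test.

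The spread at 1 dpf had a shape that all 3 actinodins shared. *fbn2b*-/- replicate 1 was the highest of its group for each gene, and WT replicates 1 and 2, which have lower library numbers, were above WT replicates 4 and 5, which have higher ones. Within the lower-numbered libraries (3 *fbn2b*-/- and 2 WT), the differences were −2.18 for *and1*, −2.23 for *and2*, and −3.05 for *and3* on the log2 scale, given without a test. These values leave out WT replicates 4 and 5, the lowest of WT, and so are larger than the fitted differences over all libraries. Without *fbn2b*-/- replicate 1 the fitted log2FC was −2.12 for *and1* (edgeR FDR 0.0824), −2.23 for *and2* (edgeR FDR 0.143), and −3.29 for *and3* (edgeR FDR 0.123). Without WT replicate 1 it was −0.91 for *and1*, −0.64 for *and2*, and −0.87 for *and3*. The size of these differences thus depended on single libraries at this stage, while their sign held with each library left out.

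Other measures of the same libraries were set beside the actinodins at 1 dpf. Each library was given a stage score from the stage change in WT, 0 being the WT mean at 1 dpf and 1 the WT mean at 2 dpf, over 500 genes that excluded the 11 rows and the genes of the lists used here. It was 0.0482, −0.0761, and −0.0921 in *fbn2b*-/- embryos at 1 dpf and 0.0450, −0.0102, 0.000359, and −0.0352 in WT. The library with the highest actinodins in each genotype also had the highest score. The order did not match throughout, since WT replicate 4 had the lowest actinodins of its group and a score above those of WT replicates 2 and 5. At 2 dpf the score ran over 0.861 to 1.04 in *fbn2b*-/- embryos and 0.939 to 1.03 in WT. The summed level of 8 skeletal muscle markers was 5497 to 10131 CPM in *fbn2b*-/- embryos at 1 dpf (median 6947) and 5960 to 16527 CPM in WT (median 10145). Of these markers, 7 had a negative and 1 a positive log2FC, with a median of −0.56, and none passed the test. Over all genes tested, 55.1% had a log2FC below 0. The muscle sum was not compared with the actinodins library by library. The part of stage, tissue content, and library number in the actinodin values was not tested.

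*fras1*, whose protein is the founding member of the Fraser complex, fell between the stages. It had 95.4, 131, 126, 125, and 124 CPM in *fbn2b*-/- embryos at 2 dpf, against 163, 208, and 238 CPM in *fbn2b*-/- embryos at 1 dpf. WT embryos had 123, 95.2, and 119 CPM at 2 dpf, against 143, 180.2, 118, and 214 CPM at 1 dpf. The stages did not overlap in *fbn2b*-/- embryos (log2FC −0.75, SE 0.17, edgeR FDR 0.00154) and did in WT (log2FC −0.54, SE 0.18, edgeR FDR 0.0212), where the call was lost without WT replicate 2 or 5 at 1 dpf or WT replicate 2 at 2 dpf. Genotype groups overlapped at both stages, with a log2FC of 0.10 at 2 dpf (SE 0.18, edgeR FDR 0.875) and 0.31 at 1 dpf (SE 0.18, edgeR FDR 0.728).

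*frem1a*, which encodes another component of the complex, passed the test in no comparison. It had 32.5, 35.5, 32.6, 41.7, and 43.2 CPM in *fbn2b*-/- embryos at 2 dpf and 30.3, 31.7, and 48.1 CPM in WT. The 1 dpf values were 35.9, 39.2, and 44.5 CPM in *fbn2b*-/- embryos and 40.8, 47.3, 27.5, and 60.9 CPM in WT. All pairs of groups overlapped, and none of the 4 comparisons between 2 groups passed, with log2FCs of 0.02 (2 dpf) and −0.14 (1 dpf) for genotype and of −0.10 (*fbn2b*-/-) and −0.26 (WT) for stage. Their SEs were 0.21, 0.22, 0.21, and 0.22 in this order.

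*frem2a* and *frem2b* encode paralogous components of the complex. *frem2a* had 79.0, 123, 107, 85.7, and 85.3 CPM in *fbn2b*-/- embryos at 2 dpf and 103, 58.7, and 65.5 CPM in WT. Its values at 1 dpf were 85.8, 128, and 123 CPM in *fbn2b*-/- embryos and 73.0, 83.9, 59.8, and 101 CPM in WT. Groups overlapped at both stages, and no comparison passed, with a genotype log2FC of 0.34 at 2 dpf (SE 0.21, edgeR FDR 0.601) and 0.50 at 1 dpf (SE 0.22, edgeR FDR 0.667).

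*frem2b* had 82.2, 108, 99.3, 102, and 119 CPM in *fbn2b*-/- embryos at 2 dpf, against 63.4, 67.4, and 72.5 CPM in *fbn2b*-/- embryos at 1 dpf. In WT it had 104, 81.2, and 63.8 CPM at 2 dpf, against 61.7, 67.9, 50.2, and 50.8 CPM at 1 dpf. It rose in *fbn2b*-/- embryos, where the stages did not overlap (log2FC 0.59, SE 0.15, edgeR FDR 0.00403), and in WT, where they did (log2FC 0.53, SE 0.16, edgeR FDR 0.0103). Without WT replicate 1 at 2 dpf the rise in WT had a log2FC of 0.33 and an edgeR FDR of 0.0817. The genotype log2FC was 0.30 at 2 dpf (SE 0.15, edgeR FDR 0.520) and 0.23 at 1 dpf (SE 0.16, edgeR FDR 0.765), with overlapping groups.

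*frem3*, a further member of the Frem family, fell between the stages. It had 79.8, 123, 125, 97.8, and 94.2 CPM in *fbn2b*-/- embryos at 2 dpf, against 119, 217, and 249 CPM in *fbn2b*-/- embryos at 1 dpf. The WT values were 80.1, 74.8, and 81.7 CPM at 2 dpf, against 108, 143, 124, and 209 CPM at 1 dpf. The fall passed in both genotypes, in *fbn2b*-/- embryos with overlap through the lowest library of 1 dpf (log2FC −0.91, SE 0.22, edgeR FDR 0.00276) and in WT with none (log2FC −0.89, SE 0.24, edgeR FDR 0.00617). The genotype log2FC was 0.40 at 2 dpf (SE 0.23, edgeR FDR 0.576) and 0.42 at 1 dpf (SE 0.24, edgeR FDR 0.716), and the groups overlapped.

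*hmcn1*, a hemicentin of the fin fold basement membrane, did not pass in any comparison. It had 39.0, 46.8, 45.6, 51.2, and 43.6 CPM in *fbn2b*-/- embryos at 2 dpf and 32.9, 30.1, and 42.1 CPM in WT. At 1 dpf it had 37.4, 54.5, and 61.9 CPM in *fbn2b*-/- embryos and 28.4, 38.9, 26.6, and 59.4 CPM in WT. At 2 dpf 1 of the 5 *fbn2b*-/- libraries lay below the highest WT library, and at 1 dpf WT replicate 5 lay above 2 of the 3 *fbn2b*-/- libraries. The genotype log2FC was 0.37 at 2 dpf (SE 0.23, edgeR FDR 0.595) and 0.42 at 1 dpf (SE 0.23, edgeR FDR 0.715).

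*hmcn2*, the second hemicentin, stood on 2 rows with the identifiers ENSDARG00000079327 (the main row) and ENSDARG00000086060 (the low row). How the counting divided reads between rows of like sequence is not given in the sources used here, so both are uncertain. The main row had 74.2, 97.1, 91.2, 75.5, and 73.2 CPM in *fbn2b*-/- embryos at 2 dpf, against 114, 154, and 189.7 CPM in *fbn2b*-/- embryos at 1 dpf. In WT it had 97.7, 70.2, and 85.9 CPM at 2 dpf, against 94.8, 110.1, 94.1, and 136 CPM at 1 dpf. It fell in *fbn2b*-/- embryos without overlap (log2FC −0.89, SE 0.16, edgeR FDR 0.000266), whereas in WT the stages overlapped (log2FC −0.36, SE 0.18, edgeR FDR 0.0965). The 2 stage changes were not shown to differ, since the test of their difference gave a log2 value of −0.53 (SE 0.24, edgeR FDR 0.889).

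For genotype the main row of *hmcn2* had a log2FC of −0.04 at 2 dpf (SE 0.17, edgeR FDR 0.950) and 0.49 at 1 dpf (SE 0.17, edgeR FDR 0.615), with overlapping groups. The low row was at 0.414 to 0.580 CPM in *fbn2b*-/- embryos at 2 dpf and 0.426 to 0.749 CPM in WT. Its values at 1 dpf were 0.848, 1.18, and 1.56 CPM in *fbn2b*-/- embryos and 0.656, 0.670, 0.706, and 0.847 CPM in WT. Its 3 *fbn2b*-/- libraries at 1 dpf lay above all 4 WT libraries by a small margin, as 2.89% of all genes did, and the log2FC of 0.77 did not pass (SE 0.25, edgeR FDR 0.611). The row fell between stages in *fbn2b*-/- embryos (log2FC −1.34, SE 0.24, edgeR FDR 0.000201) and had a log2FC of −0.30 in WT (SE 0.27, edgeR FDR 0.377).

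**Figure D3:**
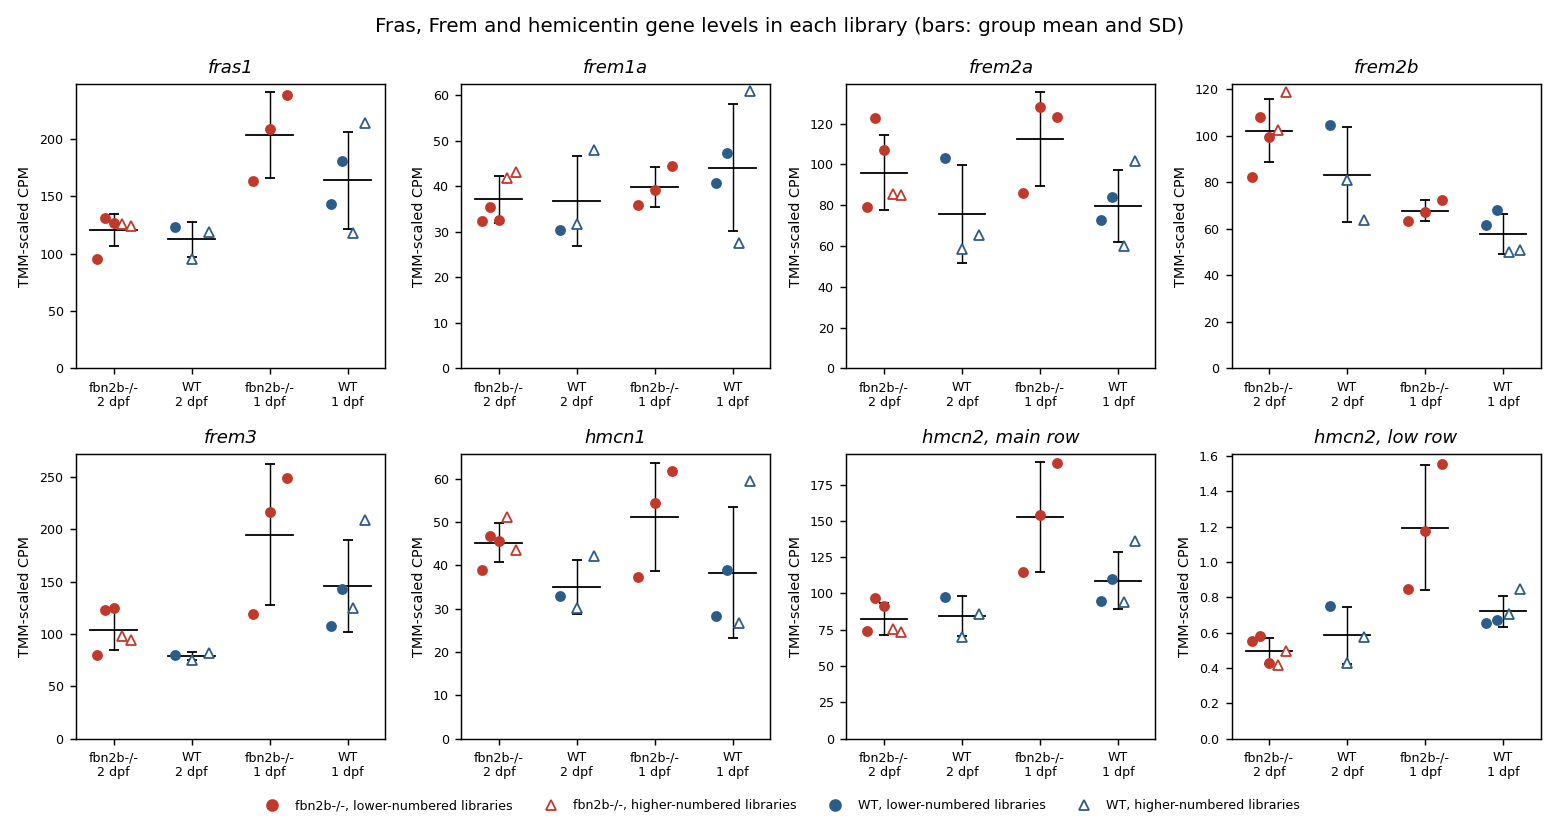
TMM-scaled CPM of the Fras/Frem and hemicentin rows in each library, for *fbn2b*-/- and WT embryos at 2 and 1 dpf, with group mean and SD as bars and the symbol giving lower- or higher-numbered libraries. *frem3* is at 74.8 to 81.7 CPM in WT at 2 dpf and at 108 to 209 CPM in WT at 1 dpf, and the genotypes overlap within each stage in all panels but the low row of *hmcn2* at 1 dpf.

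Over the 11 rows, 0 were differentially expressed between genotypes (FDR under 0.05 and absolute log2FC above 1) at either stage in edgeR's quasi-likelihood test. The share over all genes was 0.178% at 2 dpf (42 genes) and 0.00425% at 1 dpf (1 gene). The paper, which also used edgeR with these thresholds, reports many more such genes at each stage. A count of 0 here therefore does not show that the 11 rows are unchanged. *and3* passed at 2 dpf with the stages fitted separately, a fit for which the share of all genes was not computed. FDR alone gave 0 rows at either stage, against 0.233% of all genes at 2 dpf and 0.00425% at 1 dpf. An unadjusted P under 0.05 was found for 2 rows at 2 dpf (*and2* and *and3*), with 10.4% of all genes, and for 6 rows at 1 dpf, with 7.34% of all genes. These 6 were the 3 actinodins with negative and *frem2a* and both *hmcn2* rows with positive values, and they are not independent, as rows moved together from library to library. DESeq2, limma-voom, and edgeR's likelihood ratio test also gave 0 rows at both stages, although DESeq2 gave no adjusted P for *and3*. The median log2FC of the 11 rows was 0.02 at 2 dpf and 0.31 at 1 dpf, against 0.01 and −0.03 over all genes tested.

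The difference between the genotype effects (2 dpf minus 1 dpf) was also tested, and 0 of the 11 rows passed, with 0.00425% of all genes. Its log2 value was 1.20 for *and1* (SE 0.64, edgeR FDR 0.892), 0.31 for *and2* (SE 0.74, edgeR FDR 0.964), and 0.40 for *and3* (SE 0.95, edgeR FDR 0.964). An unadjusted P under 0.05 was found for the 2 *hmcn2* rows, with 5.51% of all genes.

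Between stages, 8 rows passed at FDR under 0.05 in *fbn2b*-/- embryos and 6 in WT, with 56.3% and 54.6% of all genes. Of these, 4 in *fbn2b*-/- embryos and 3 in WT also had an absolute log2FC above 1, with 27.7% and 27.1% of all genes, so that the counts of rows were not far from the shares of all genes. The stages did not overlap for 7 rows in *fbn2b*-/- embryos and 4 in WT, against the shares of 56.3% and 49.7% of all genes. The 3 actinodins were differentially expressed in both genotypes, as was the low row of *hmcn2* in *fbn2b*-/- embryos. The median log2FC over the 11 rows was −0.18 in *fbn2b*-/- embryos and −0.13 in WT.

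**Figure D4:**
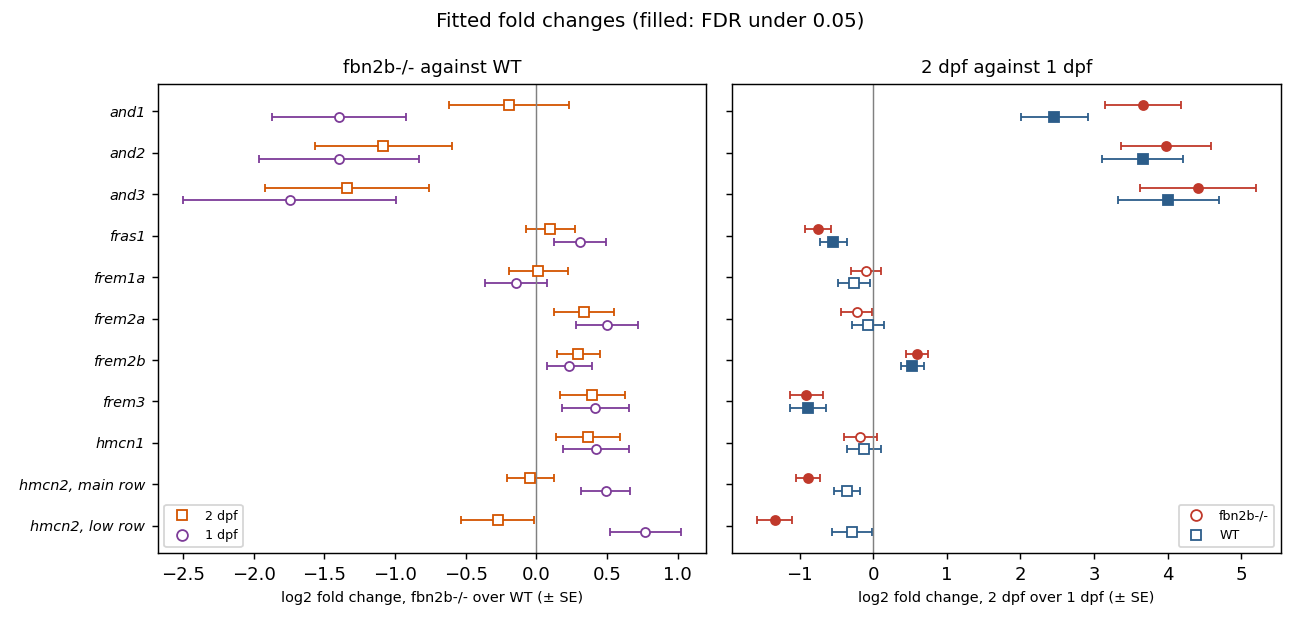
Fitted log2FC with SE of each row, for *fbn2b*-/- over WT at 2 and 1 dpf (left) and for 2 dpf over 1 dpf in *fbn2b*-/- and WT embryos (right), with filled symbols at FDR under 0.05. No symbol is filled on the left, and on the right the 3 actinodins lie between 2.46 and 4.41 in both genotypes.

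The actinodins moved together from library to library. After subtraction of the group means of log2 CPM, Pearson's r over the 15 libraries was 0.960 to 0.975 among the 3 actinodins. Among the Fras/Frem and hemicentin rows, with the low row of *hmcn2* left out, it was −0.06 to 0.897 with a median of 0.743, and *fras1* and *hmcn1* had the highest value. The lowest values of this set were those of *frem2b*, with r of −0.06 to 0.466 to the other rows, and *frem1a* had r of −0.04 to 0.822. Between an actinodin and one of these Fras/Frem or hemicentin rows, r was −0.646 to 0.309 with a median of −0.168, the lowest being that of *and2* and *frem3*. All points share their libraries, and at 1 dpf a few libraries with large deviations weigh heavily. The deviation of the stage score in the same libraries had r of 0.313 to 0.471 with the actinodins and −0.621 to −0.327 with the other 8 rows, and its part was not tested.

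**Figure D5:**
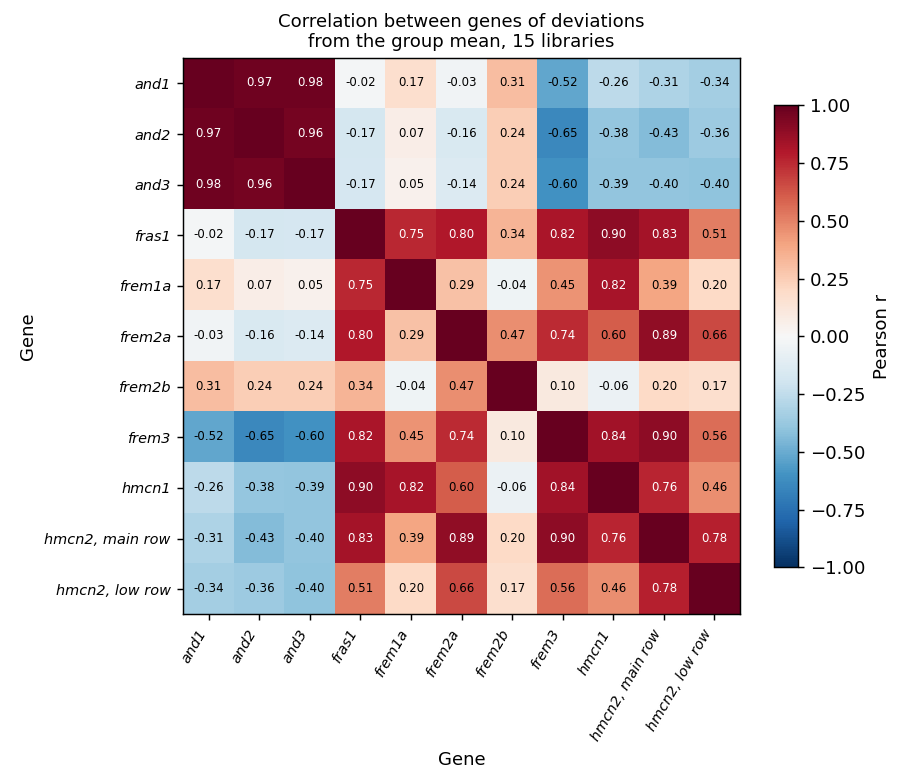
Pearson's r between rows of the deviations of log2 CPM from the group mean, over 15 libraries. The actinodins form a block with r of at least 0.960, and r among the Fras/Frem and hemicentin rows runs from −0.06 to 0.897.

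Among 16134 genes with a mean log2 CPM of at least 1, those with deviations most like *and1* were CABZ01074130.1 (r = 0.954), *grp* (r = 0.937), *tnn* (r = 0.927), si:ch211-241e1.3 (r = 0.924), and *col6a1* (r = 0.918), over 15 libraries. *tnn* encodes tenascin N and *col6a1* a chain of collagen VI, both of the extracellular matrix, and *grp* a peptide hormone. For *fras1* they were *hspg2* (r = 0.962), si:dkey-240h12.4 (r = 0.957), *trim25l* (r = 0.953), *lama5* (r = 0.942), and FP236157.4 (r = 0.941). For *hmcn1* they were *nbeal1* (r = 0.969), *akap9* (r = 0.961), *lama5* (r = 0.956), *sp7* (r = 0.950), and *ahnak* (r = 0.945). *hspg2* encodes the basement membrane proteoglycan perlecan and *lama5* a laminin chain of the epidermal basement membrane, and *lama5* was in both lists of 5. Several of these genes, like *fras1* and *hmcn1*, encode very large proteins. The values are a description with no test.

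Other genes of actinotrichia were followed through a list of fiber collagens and collagen-processing genes, of which 14 of 16 named genes were in the table. The named genes without a row under their symbol were *and4* and *col9a1c*, so neither was examined. Between genotypes 0 of the 14 passed at either stage, and the median log2FC was −0.18 at 2 dpf and 0.08 at 1 dpf. Those of lowest FDR at 2 dpf were *serpinh1b*, the collagen chaperone (log2FC −0.84, SE 0.31), and the collagen I genes *col1a2* (−0.54, SE 0.20), *col1a1a* (−0.66, SE 0.24), and *col1a1b* (−0.57, SE 0.22). Their edgeR FDRs were 0.358, 0.359, 0.361, and 0.391 in this order. *col1a1a* was at 1105 to 1335 CPM in *fbn2b*-/- embryos at 2 dpf and 1201 to 2528 CPM in WT, and the groups overlapped. Between stages 6 of the 14 passed in *fbn2b*-/- embryos (2 higher and 4 lower at 2 dpf) and 8 in WT (4 higher and 4 lower), with 56.3% of all genes passing in *fbn2b*-/- embryos and 54.6% in WT.

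A second list held partners of the Fraser complex and other genes of the epidermal basement membrane, of which 20 of 21 were in the table. Between genotypes 0 of the 20 passed at either stage, with a median log2FC of 0.01 at 2 dpf and 0.10 at 1 dpf. At 2 dpf the lowest FDR was that of *itgb1b*, an integrin beta chain (log2FC 0.25, SE 0.09, edgeR FDR 0.355). At 1 dpf it was that of *grip2a*, of the Grip family that sorts Fras/Frem proteins in mammals (log2FC 0.51, SE 0.16, edgeR FDR 0.611), together with *fbln1*, whose fibulin acts with hemicentin in the fin fold (log2FC 0.71, SE 0.23, edgeR FDR 0.611). Between stages 17 passed in *fbn2b*-/- embryos (6 higher and 11 lower) and 14 in WT (6 higher and 8 lower), against 56.3% of all genes in *fbn2b*-/- embryos and 54.6% in WT.

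Regulators of the fin mesenchyme, the cells that enter the fold, were all 12 in the table. At 2 dpf all 12 had a positive log2FC of *fbn2b*-/- over WT, with a median of 0.25 against 0.01 over all genes, and 0 passed. Of all genes tested, 48.4% had a log2FC below 0 at this stage. The list was chosen with earlier results of these data known, and whether its genes vary together was not examined, so the shared sign is only a description. Those of lowest FDR were *hoxd13a* (log2FC 1.03, SE 0.29, edgeR FDR 0.198) and *hoxb13a* (log2FC 0.80, SE 0.23, edgeR FDR 0.203), posterior Hox genes of the tail and distal fin. *hoxd13a* was at 2.32 to 3.19 CPM in *fbn2b*-/- embryos at 2 dpf and 0.873 to 1.80 CPM in WT, without overlap, as 3.74% of all genes in that direction. *hoxb13a* was at 6.04 to 8.63 CPM in *fbn2b*-/- embryos and 2.76 to 4.92 CPM in WT, also without overlap. At 1 dpf the list had 4 positive and 8 negative values with a median of −0.08, and 0 passed, with 55.1% of all genes below 0.

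Regulators of the fin fold epidermis, 16 of 16 in the table, had a median log2FC of 0.09 at 2 dpf and −0.09 at 1 dpf, and 0 passed at either stage. *msx2a*, a homeobox gene of the fold edge, had the lowest FDR of the 16 at 2 dpf (log2FC 0.79, SE 0.21, edgeR FDR 0.167). It was at 1.85 to 3.23 CPM in *fbn2b*-/- embryos and 1.14 to 1.80 CPM in WT. The groups were apart by a small margin, as 3.74% of all genes were without overlap in that direction. The summed level of 12 basal epidermis markers was 2532 to 3334 CPM in *fbn2b*-/- embryos at 2 dpf and 3404 to 3925 CPM in WT, with 8 negative and 4 positive values and 0 passing. Every *fbn2b*-/- library at 2 dpf thus lay below every WT library in this sum, the same direction as in *and2* and *and3*. At 1 dpf it was 1921 to 2700.3 CPM in *fbn2b*-/- embryos and 1439 to 2855 CPM in WT. Of 8 periderm markers, the outer skin layer, 4 had a positive log2FC at 2 dpf and all 8 at 1 dpf, with 0 passing. Over all genes tested, 48.4% were below 0 at 2 dpf and 55.1% at 1 dpf. The part of skin content in the values of the actinodin and Fras/Frem genes was not tested.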

How the data were processed

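Per the labels, the authors extracted RNA from pools of 10 whole embryos, and they deposited raw counts of reads per gene, aligned to GRCz11. The methods state a stranded total RNA kit, and the submitters' processing notes name FastQC 0.11.9, Trim Galore 0.6.6, STAR 2.7.6a, and featureCounts of Subread 2.0.0. The strand setting and annotation release are not given in the sources used here. Of 23 count columns, 15 matched a listed sample by name and 8 were not used. WT replicate 3 at 1 dpf matched no column and was not analysed here. Labels give the replicates as biological but not whether clutches differed.

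Counts were analysed in R 4.3.3 with edgeR 4.0.16. Genes were filtered with filterByExpr (minimum count 10, minimum total 15), which left 23555, libraries were TMM-scaled, and all 4 groups were fitted together with the quasi-likelihood test, with Benjamini-Hochberg adjustment over all genes tested. Calls required FDR under 0.05, and differential expression also an absolute log2FC above 1. log2 CPM used a prior count of 2. All 10 member genes are named, with up to 4 genes of lowest FDR from each gene list and 5 genes most like *and1*, *fras1*, and *hmcn1*. The members and lists were chosen with earlier results of these data known. The procedure was tested on simulated data. The low row of *hmcn2* had 30 to 156 counts per library, so that counting error adds to its spread. Alternatives were other scalings, filters, and tests (DESeq2 1.42.0, limma-voom in limma 3.58.1), separate fits, covariates, a replicate block, and each library left out. Figures were drawn with matplotlib 3.10.9.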

Additional observations from a re-analysis of the deposited data

Results flagged for a closer look

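In *fbn2b*-/- embryos at 2 dpf (n = 5), replicate 2 was far from the other libraries for *and3*, with 62.2 CPM as the highest value, although it remained below all WT libraries. In the same group, replicate 1 was far from the others for *fras1*, with 95.4 CPM as the lowest value. These were 2 of 22 groups examined in this way (11 rows in the 2 groups of 4 or 5 libraries), and chance flags about 1 in 20.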

How the results depend on the processing

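The direction of *and2* and *and3* in both genotype comparisons held in every setting tried, but was not recorded for *and3* in DESeq2. No row passed between genotypes in any setting except *and3* with the stages fitted separately, which gave 1 row at 2 dpf in place of 0 (log2FC −1.36). With the replicate block, 0 rows were differentially expressed between genotypes, and 4 in *fbn2b*-/- embryos and 3 in WT between stages, as without it, and *and1* at 2 dpf changed sign (0.11). Of 17 same-numbered pairs of libraries, 7 had correlated deviations above 0.1 (r −0.336 to 0.351). Differently numbered pairs were not compared, so whether the replicate numbers pair the samples cannot be told from this. Values near 0 changed sign without passing. *frem1a* at 2 dpf was −0.0066 with RLE and −0.0077 with upper-quartile scaling, −0.0298 without a filter, −0.0062 in DESeq2, and −0.0101 with the replicate block. *frem2a* between stages in WT was 0.0015 with upper-quartile scaling and 0.0136 without a filter. With the stage score as a covariate, chosen after the data were seen, *and1*, *fras1*, and *frem1a* at 2 dpf were 0.0101, −0.0359, and −0.0942. That covariate was not used in the stage comparisons, because the score is built from the stage change in WT. Leaving out 1 library at a time gave the following ranges of log2 values. For genotype at 2 dpf they were −0.109 to 0.258 for *frem1a*, −0.0340 to 0.173 for *fras1*, and −0.187 to 0.0732 for the main row of *hmcn2*. At 1 dpf *frem1a* ran from −0.314 to 0.0510. For the difference of the genotype effects, *and2* ran from −0.450 to 1.15 and *and3* from −0.484 to 1.94. Between stages in WT, *frem2a* ran from −0.354 to 0.128 and *hmcn1* from −0.277 to 0.162. The cause of these changes was not tested. The fall of *fras1* in WT also missed the threshold without a filter (log2FC −0.46, edgeR FDR 0.0587) and in separate fits (log2FC −0.50, edgeR FDR 0.0690). DESeq2 gave no adjusted P for *and3*, which is not counted as lost, and the low row of *hmcn2* did not pass the filter on CPM (at least 1 in at least 3 libraries). Without any 1 library, *and2* over *and1* at 2 dpf differed by −0.392 to −0.355 and *and3* over *and1* by −0.193 to −0.171 (*fbn2b*-/- minus WT), settings also chosen after the data were seen. Because the genotypes did not overlap in either ratio, leaving out 1 library could not change the sign.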
